A study of Arabidopsis thaliana with 12 samples.

Results

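The Aux/IAA repressor genes and the auxin-conjugating GH3 genes of Arabidopsis thaliana were described across 4 genotypes of seedlings grown in red light. The members were the 29 Aux/IAA genes together with GH3.1 to GH3.6 and GH3.17, taken from the deposited gene table by their AGI locus codes (the chromosome and position names of Arabidopsis genes). They made up 36 of the 27588 genes listed. The choice was by name, not by level, and was made with earlier results of these data known. Messenger RNA of whole seedlings was sequenced in 12 libraries, 3 for each genotype, all in the Columbia background per the labels. The genotypes were a cfh1 mutant, a line carrying a CFH1 decoy, a PIF3 over-expression line, and the wild type Col-0. The PIF3 libraries are titled as a mutant of pif3, but their genotype labels and short names give over-expression, which was followed here. In those libraries PIF3 stood at 354 ± 8.05 CPM in PIF3 over-expression and 28.8 ± 7.32 CPM in Col-0 (SD, n = 3 each), a log2 fold change of 3.62 ± 0.23 (SE). Plants had 12 h of light a day for the first 7 days, with 12 h of darkness, and then continuous red light until collection on day 12 at zeitgeber time 1. CFH1 is an F-box protein, the part of a ubiquitin ligase that picks the substrate. PIF3 is a phytochrome-interacting basic helix-loop-helix transcription factor. What drives the decoy and PIF3, and how many independent lines stand behind each, is not stated in the labels. The labels do not say whether replicates were separate cultures, so each p-value reflects only the spread between libraries, which may be technical. With 1 collection time, a changed level cannot be told apart from a shifted daily cycle.

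Aux/IAA proteins are short-lived nuclear repressors. They bind auxin response factors (ARFs) through a carboxy-terminal domain, and an amino-terminal leucine-rich motif recruits TOPLESS co-repressors, so that auxin target genes stay off. Auxin joins the degron, a short stretch around the residues Gly-Trp-Pro-Pro, to the F-box receptors TIR1 and AFB, and the repressor is then ubiquitinated and degraded. Many Aux/IAA genes are themselves ARF targets, which closes a feedback loop. GH3 enzymes of the group described here join auxin to amino acids and so lower the free hormone, and several of their genes are early auxin-induced targets as well. In seedlings, PIF factors are known to raise auxin synthesis and signalling genes in shade and warmth.

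The degron is shown first because it is the part that ties each repressor to auxin. A Gly-Trp-Pro-Pro core was found in 23 of the 29 predicted Aux/IAA proteins. IAA20, IAA30, IAA31, IAA32, IAA33 and IAA34 lacked it. An LxLxL motif, the form that binds TOPLESS, was found in 28 of 29, with IAA33 the exception. The 29 proteins were 129 to 338 residues long, and the 7 GH3 proteins 590 to 612. The coding strand around the core follows for 10 genes, each 39 bases read from the RefSeq release of the TAIR10.1 genome. Capitals mark the bases that encode Gly-Trp-Pro-Pro. The genes were taken from several clades, the subgroups of related proteins. IAA5 and IAA19 share a clade, as do IAA14 and IAA17. All of the printed genes but IAA10 were also among those called in the decoy line below.
IAA2 (chr3:8181378-8181416, minus strand): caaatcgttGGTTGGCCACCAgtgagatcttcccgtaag
IAA5 (chr1:5366266-5366304, minus strand): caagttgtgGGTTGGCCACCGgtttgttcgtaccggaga
IAA19 (chr3:5264307-5264345, plus strand): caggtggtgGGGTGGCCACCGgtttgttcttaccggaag
IAA14 (chr4:8349469-8349507, minus strand): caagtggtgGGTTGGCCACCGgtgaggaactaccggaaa
IAA17 (chr1:1136938-1136976, plus strand): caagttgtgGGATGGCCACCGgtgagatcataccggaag
IAA9 (chr5:26255104-26255142, plus strand): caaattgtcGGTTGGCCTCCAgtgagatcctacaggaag
IAA10 (chr1:1060328-1060366, plus strand): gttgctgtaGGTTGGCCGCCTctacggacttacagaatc
IAA12 (chr1:1241058-1241096, plus strand): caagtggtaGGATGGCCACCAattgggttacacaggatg
IAA28 (chr5:9033812-9033850, plus strand): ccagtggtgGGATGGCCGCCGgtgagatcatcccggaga
IAA29 (chr4:15583942-15583980, plus strand): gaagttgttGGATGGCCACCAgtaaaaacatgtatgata
In each of these genes the printed stretch lies within a single exon.

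Levels between genes were compared as CPM (counts put on 1 library size by the TMM factors of edgeR) per kb of the RefSeq transcript. In Col-0 the highest were IAA7 at 162 ± 6.02, IAA16 at 133 ± 5.50, IAA9 at 124 ± 4.27 and IAA8 at 123 ± 6.50 CPM per kb (SD, n = 3). IAA9 and IAA8 did not differ beyond that spread, and nor did IAA2 at 74.9 ± 2.79 and IAA4 at 74.3 ± 5.12 CPM per kb, the next in order. The 4 highest genes held 53.1% of the summed Aux/IAA level. Of the 29 genes, 13 stood above 20 CPM per kb and 7 below 1 CPM per kb. The 6 repressors without the degron core held 0.511% of the summed level together, and IAA31 was the highest of them at 2.43 ± 0.655 CPM per kb. Among the GH3 genes, GH3.6 (AT5G54510) was at 25.3 ± 2.19 and GH3.17 (AT1G28130) at 22.3 ± 0.823 CPM per kb. GH3.2 was at 11.9 ± 1.01, GH3.5 at 10.1 ± 1.31, GH3.3 at 5.54 ± 0.577 and GH3.1 at 0.559 ± 0.121 CPM per kb. IAA7 had the highest mean of the members in each of the 4 genotypes, although with PIF3 over-expression it did not differ from IAA16 beyond the spread (167 ± 41.1 and 152 ± 22.8 CPM per kb).

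**Figure D1:**
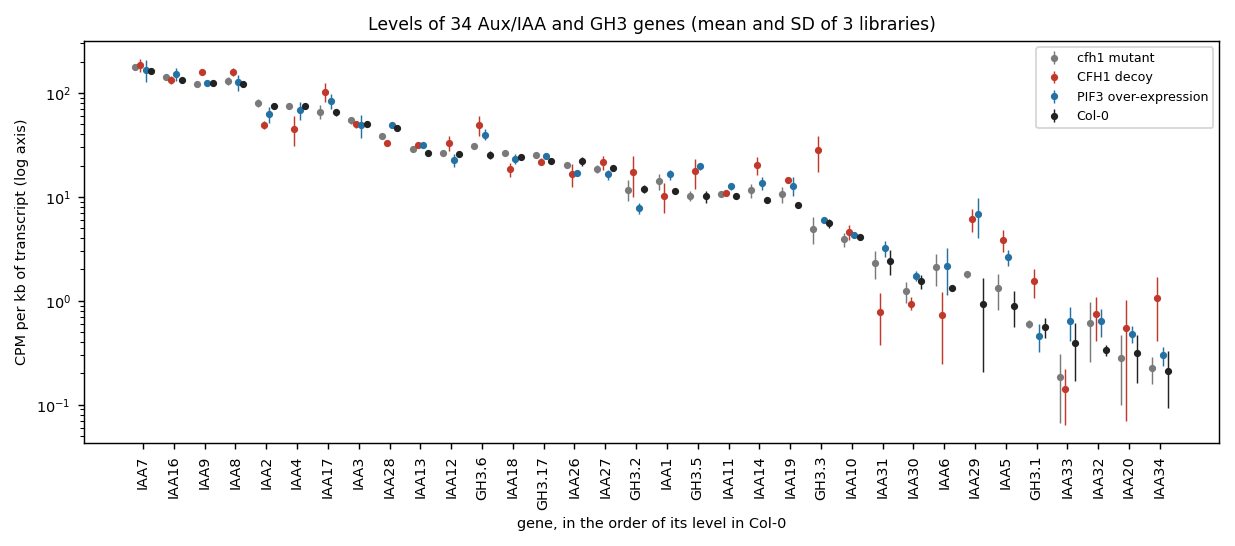
Mean CPM per kb of transcript (log axis) with SD of 3 libraries for the 34 members tested, ordered by their level in Col-0, for cfh1, the decoy, PIF3 over-expression and Col-0. IAA7 has the highest mean in all 4 genotypes, and the decoy points of GH3.3, IAA29, IAA5 and IAA34 stand far above their Col-0 points.

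Of the 36 members, 34 passed the filter on low counts. IAA15 (AT1G80390) summed to 2 counts in cfh1, 1 in the decoy, 9 with PIF3 over-expression and 2 in Col-0. GH3.4 (AT1G59500) had 6, 7 and 11 counts in the decoy libraries and 0 in all the others, which makes it at least 9.997-fold higher in the decoy than a floor of 3 counts over the Col-0 libraries. Such floors cover counting error only. The longest run of coding sequence that GH3.4 shares with GH3.2 is 65 bp, and their proteins are 87.9% identical. A few reads of GH3.2 could therefore be counted for GH3.4, and its value is uncertain. GH3.2 had 948, 795 and 786 counts in Col-0, where GH3.4 had 0, and 875, 637 and 1251 counts in the decoy. Whether reads were shared was not tested. GH3.2 and GH3.3 share a run of 56 bp, IAA20 and IAA30 one of 52 bp, and GH3.5 and GH3.6 one of 42 bp.

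Library totals ran from 21914548 counts in decoy replicate 1 to 34345371 in decoy replicate 2. Rank correlations within a genotype were 0.975 to 0.981 in the decoy and 0.984 to 0.996 elsewhere, and the TMM factors were 0.793 to 0.939 in the decoy and 0.976 to 1.12 elsewhere. Genes called lower whose libraries in that line summed to at most 3 counts numbered 211 for the decoy, 4 for PIF3 over-expression and 0 for cfh1. Summed shoot markers (4 genes, none at 0) stood at 25219 to 27573 CPM in cfh1, 38016 to 54329 CPM in the decoy, 13806 to 21171 CPM with PIF3 over-expression and 25495 to 27986 CPM in Col-0. Summed root markers (6 genes, none at 0) stood at 3295 to 4245, 5145 to 6894, 3489 to 4472 and 3044 to 4167 CPM in the same order. PYK10 made up most of the root sum, with means of 6091 CPM (decoy) and 3388 CPM (Col-0). Taken singly against Col-0, 3 root markers were called higher in the decoy (PYK10, SCR and NRT2.1) and 1 lower. The lower one was EXPA7, with means of 5.20 CPM (decoy) and 13.3 CPM (Col-0), a log2 fold change of -1.38. COBL9 and CASP1 were not called. In bulk seedlings, fewer cells of a type and less RNA per cell cannot be told apart. The part of these marker differences in the results that follow was not tested.

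In the cfh1 mutant, none of the 34 members was called higher or lower than in Col-0 by edgeR's quasi-likelihood test (Benjamini-Hochberg adjustment over 21235 genes, threshold 0.05), and DESeq2 also called 0. The share of all genes called was 0.0141% higher and 0.0565% lower. At an unadjusted p under 0.05, 0 members were higher and 1 was lower, against 2.11% and 2.43% of all genes. That gene was IAA28 (AT5G25890), a regulator of lateral root initiation, at 55.9, 52.9 and 52.4 CPM in cfh1 and 64.3, 68.0 and 59.9 CPM in Col-0. The adjusted p of its log2 fold change of -0.25 ± 0.09 (SE) was 0.97. IAA29 stood at 2.03, 1.98 and 2.32 CPM in cfh1 and 0.402, 0.821 and 2.03 CPM in Col-0, where 1 Col-0 library lay within the cfh1 range (log2 fold change 0.99 ± 0.48, adjusted p 0.97). The median log2 fold change over the members was 0.08 in cfh1, against 0.0017 over all genes tested.

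In the CFH1 decoy line, 14 of the 34 members were higher and 6 lower than in Col-0, where 19.6% of all genes were higher and 21.2% lower. The share of members higher was above that background and the share lower was near it, and without Col-0 replicate 3 the count lower was 3. These shares are a description with no set test, for members chosen with earlier results known. Leaving out each library in turn, the count higher was 10 to 13. Aux/IAA genes gave 10 higher and 6 lower of 28, and GH3 genes 4 higher and 0 lower of 6. The median log2 fold change was 0.22 over the members and -0.0009 over all genes. Under library totals alone, 10 members were called higher and 8 lower, with all genes shifted to a median of -0.25. Among the tested members, IAA29, IAA5, IAA34, GH3.3 and GH3.1 moved most upward and IAA31 most downward, mostly genes with low levels in Col-0. IAA7 and IAA16, the most abundant repressors, were not called.

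**Figure D2:**
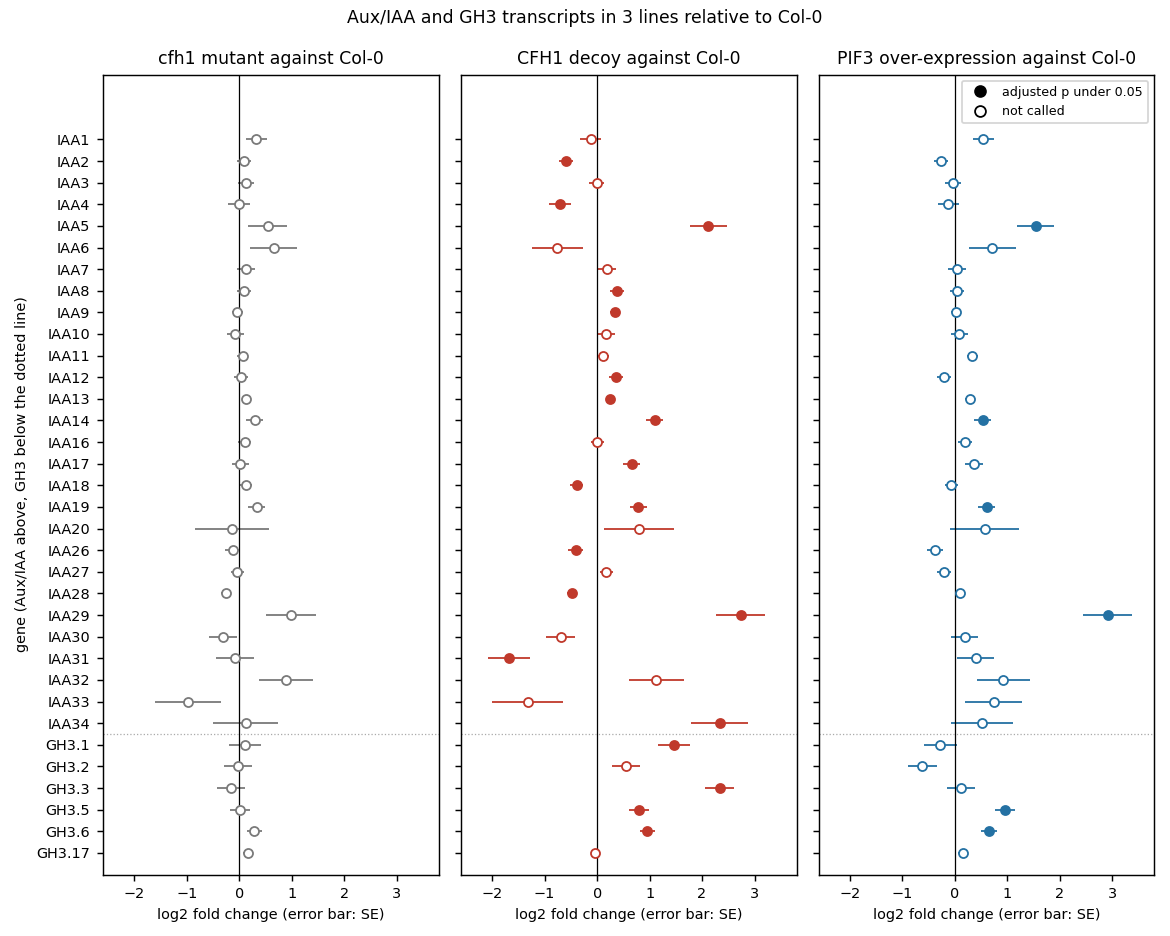
Log2 fold change against Col-0 with SE (x axis) of the 34 members tested, in cfh1, the decoy and PIF3 over-expression; filled points passed an adjusted p of 0.05. The cfh1 panel has no filled point, the decoy panel has 14 to the right of 0 and 6 to the left, and the PIF3 panel has 6, all to the right.

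The clade of IAA5, IAA6, IAA15 and IAA19 holds early auxin-induced repressors. IAA5 (AT1G15580) stood at 2.36, 3.78 and 2.95 CPM in the decoy, 2.06, 2.39 and 1.69 CPM with PIF3 over-expression and 1.38, 1.08 and 0.610 CPM in cfh1, against 0.517, 0.997 and 0.584 CPM in Col-0. All decoy and PIF3 over-expression libraries lay above all Col-0 libraries, with log2 fold changes of 2.12 ± 0.35 (adjusted p 0.000581) in the decoy and 1.54 ± 0.35 (adjusted p 0.0138) with PIF3 over-expression. IAA19 (AT3G15540), known as MSG2 for its part in hypocotyl bending, stood at 15.2, 14.6 and 14.0 CPM in the decoy and 10.7, 15.9 and 12.1 CPM with PIF3 over-expression, and at 12.7, 10.5 and 8.85 CPM in cfh1 and 8.21, 8.80 and 8.45 CPM in Col-0. It rose by 0.78 ± 0.16 in the decoy (adjusted p 0.00259) and by 0.60 ± 0.16 with PIF3 over-expression (adjusted p 0.0272), on the log2 scale. The PIF3 call for IAA19 was lost without any 1 of the Col-0 libraries or without PIF3 over-expression replicate 2 (adjusted p up to 0.106), and that for IAA5 without Col-0 replicate 1 (0.0753). IAA6 (AT1G52830) stood at 0.173, 0.992 and 0.728 CPM in the decoy, below its Col-0 values of 1.15, 1.09 and 1.17 CPM, and was not called (adjusted p 0.227).

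IAA29 (AT4G32280), a gene known to rise in shade through PIF factors, had the largest log2 fold change of any tested member in both lines. It stood at 7.48, 8.65 and 5.20 CPM in the decoy, 4.29, 10.8 and 8.97 CPM with PIF3 over-expression and 0.402, 0.821 and 2.03 CPM in Col-0. The decoy and PIF3 over-expression libraries all lay above every Col-0 library, and the third Col-0 library stood apart from the others. The log2 fold change was 2.74 ± 0.47 in the decoy (adjusted p 0.000704) and 2.91 ± 0.47 with PIF3 over-expression (adjusted p 0.00301). Without Col-0 replicate 3 the values were 3.53 and 3.71.

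IAA7, IAA14, IAA16 and IAA17 form the clade best known from dominant mutants with stabilised repressors. IAA14 (AT4G14550), known as SLR for its solitary-root mutant, stood at 41.3, 27.4 and 35.7 CPM in the decoy, 19.9, 26.4 and 23.9 CPM with PIF3 over-expression, 21.3, 22.1 and 16.3 CPM in cfh1 and 15.8, 16.1 and 16.9 CPM in Col-0. The decoy and PIF3 over-expression libraries again lay above all of Col-0. It rose by 1.10 ± 0.16 in the decoy (adjusted p 0.000274). With PIF3 over-expression the log2 fold change was 0.53 ± 0.16 at an adjusted p of 0.0494, and that call was lost on leaving out any 1 of the 6 libraries compared. IAA17 (AT1G04250), known as AXR3, stood at 165, 110.3 and 129 CPM in the decoy and 81.1, 83.1 and 92.8 CPM in Col-0 and rose by 0.65 ± 0.17 (adjusted p 0.00832). IAA7 (AT3G23050) at 246 ± 35.7 CPM in the decoy and 217 ± 8.02 CPM in Col-0, and IAA16 (AT3G04730) at 270.4 ± 23.1 and 269 ± 11.1 CPM, overlapped between the groups and were not called.

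In the clade of IAA1 to IAA4, the calls in the decoy went down. IAA2 (AT3G23030) stood at 49.8, 58.1 and 49.0 CPM in the decoy and 80.0, 76.2 and 82.1 CPM in Col-0, with no overlap, and fell (log2 fold change -0.60 ± 0.13, adjusted p 0.0039). IAA4 (AT5G43700) stood at 38.7, 75.2 and 69.7 CPM in the decoy and 97.0, 96.6 and 109 CPM in Col-0 and fell (log2 fold change -0.72 ± 0.21, adjusted p 0.0167); without Col-0 replicate 3 the adjusted p was 0.0517. The lowest decoy value came from replicate 1. That library had the lowest total, and it also had the highest decoy values of IAA14 and IAA17. The part of depth in these values was not tested. IAA1 (AT4G14560, -0.13) and IAA3 (AT1G04240, known as SHY2, -0.01) were not called in the decoy.

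The 3 genes of the clade of IAA18, IAA26 and IAA28 were all lower in the decoy. IAA28 stood at 41.9, 48.0 and 47.3 CPM in the decoy, 71.4, 67.0 and 67.0 CPM with PIF3 over-expression and 64.3, 68.0 and 59.9 CPM in Col-0. Its decoy values lay below all others in the series, and the log2 fold change against Col-0 was -0.49 ± 0.09 (adjusted p 0.00142). IAA18 (AT1G51950) stood at 27.3, 34.5 and 36.3 CPM in the decoy and 43.0, 41.2 and 45.0 CPM in Col-0 (log2 fold change -0.39 ± 0.12, adjusted p 0.019). IAA26 (AT3G16500), also called PAP1 for its association with phytochrome, stood at 23.8, 37.3 and 37.9 CPM in the decoy and 39.3, 47.0 and 45.7 CPM in Col-0 (log2 fold change -0.41 ± 0.15, adjusted p 0.043). Without decoy replicate 1, where IAA18 and IAA26 were lowest, or without Col-0 replicate 3, both lost the call. So did IAA18 without Col-0 replicate 1 and IAA26 without Col-0 replicate 2.

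The repressors IAA8, IAA9, IAA12 and IAA13 were higher in the decoy by small steps. IAA9 (AT5G65670) stood at 309, 299.7 and 311 CPM in the decoy and 238, 251 and 235 CPM in Col-0, without overlap (log2 fold change 0.34 ± 0.10, adjusted p 0.0144). IAA8 (AT2G22670) stood at 276, 257 and 232 CPM in the decoy and 206, 194 and 185 CPM in Col-0 (log2 fold change 0.38 ± 0.14, adjusted p 0.0373). IAA12 (AT1G04550), known as BDL for its part in forming the embryonic root, rose by 0.35 (adjusted p 0.0456) and its close relative IAA13 (AT2G33310) by 0.25 (adjusted p 0.0337). Scaled by library totals alone, none of these 4 genes was called and IAA13 stood at -0.0057. IAA9 also lost its call without Col-0 replicate 1 (0.0568). IAA8, IAA12 and IAA13 lost theirs without any 1 of the Col-0 libraries or without decoy replicate 1. The same held without decoy replicate 2 for IAA8 and IAA12, and without decoy replicate 3 for IAA13. IAA27 (AT4G29080, 0.17), IAA10 (AT1G04100, 0.17) and IAA11 (AT4G28640, 0.11) were not called in the decoy.

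The 6 repressors without the degron core were scarce and moved in both directions in the decoy, with 1 called in each direction. IAA34 (AT1G15050) stood at 1.04, 1.71 and 0.416 CPM in the decoy and 0.172, 0.117 and 0.343 CPM in Col-0, from 85 and 20 counts. The decoy libraries stood above all Col-0 libraries but differed widely among themselves (log2 fold change 2.33 ± 0.55, adjusted p 0.00522), and without decoy replicate 2 the value was 1.73. IAA31 (AT3G17600) stood at 0.920, 0.279 and 0.902 CPM in the decoy, 3.33, 2.95 and 2.31 CPM with PIF3 over-expression and 2.81, 1.67 and 2.03 CPM in Col-0. It was below Col-0 in all 3 decoy libraries and fell by 1.68 on the log2 scale (SE 0.40, adjusted p 0.00593). IAA30 (AT3G62100, -0.70, adjusted p 0.0615), IAA32 (AT2G01200, 1.13, adjusted p 0.0979), IAA33 (AT5G57420, -1.32) and IAA20 (AT2G46990, 0.79) were not called. The IAA33 value came from 9 decoy and 28 Col-0 counts.

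**Figure D3:**
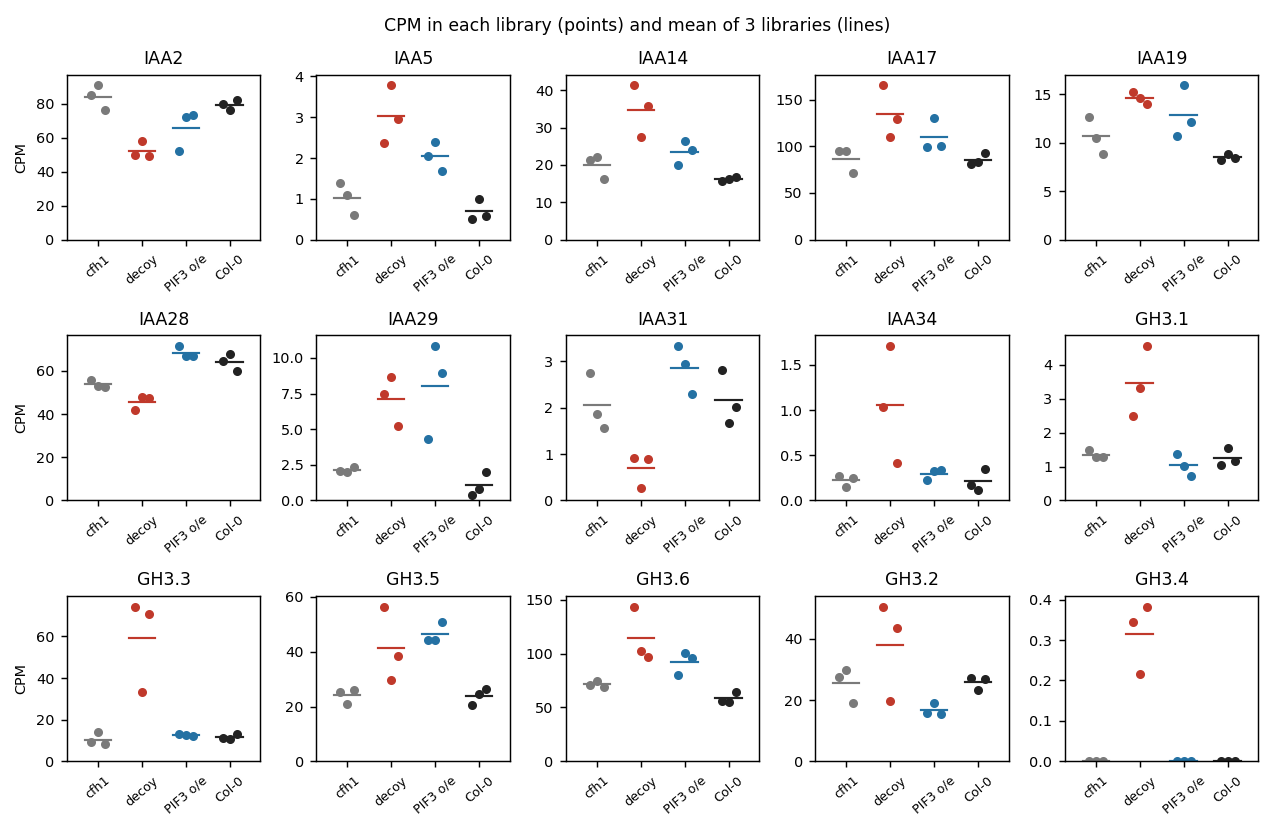
CPM (y axis, from 0) in each of 12 libraries, points for replicates 1 to 3 in each genotype and a line at their mean, for the 13 members whose decoy call held without any single library, and for GH3.2 and GH3.4. GH3.3 stands at 33.1 to 74.1 CPM in the decoy and 10.8 to 13.1 CPM in Col-0, and IAA29 and GH3.5 are also high with PIF3 over-expression.

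GH3.3 (AT2G23170) changed most among the conjugating enzymes tested in the decoy, which leaves out GH3.4. It stood at 74.1, 33.1 and 70.5 CPM in the decoy, 13.1, 12.8 and 12.2 CPM with PIF3 over-expression, 9.21, 14.0 and 8.21 CPM in cfh1 and 11.3, 10.8 and 13.1 CPM in Col-0. The 3 decoy libraries stood above all the others, and the log2 fold change against Col-0 was 2.33 ± 0.27 (adjusted p 3.64e-05). GH3.1 (AT2G14960) stood at 2.47, 3.32 and 4.54 CPM in the decoy and 1.03, 1.55 and 1.17 CPM in Col-0 and rose by 1.47 ± 0.30 (adjusted p 0.00217). Neither gene was called with PIF3 over-expression, where the log2 fold changes were 0.11 for GH3.3 and -0.28 for GH3.1. GH3.2 (AT4G37390) stood at 50.3, 19.8 and 43.4 CPM in the decoy, 15.7, 19.1 and 15.5 CPM with PIF3 over-expression and 27.2, 23.3 and 27.0 CPM in Col-0. It was not called in either line (adjusted p 0.121 and 0.157). Decoy replicate 2 lay below Col-0, and the other decoy libraries lay above it.

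GH3.5 and GH3.6 were higher in both lines. GH3.5 (AT4G27260), known as WES1 and able to conjugate salicylic acid besides auxin, stood at 56.3, 29.8 and 38.3 CPM in the decoy, 44.1, 44.1 and 50.9 CPM with PIF3 over-expression, 25.2, 21.1 and 26.2 CPM in cfh1 and 20.5, 24.6 and 26.5 CPM in Col-0. The decoy and PIF3 over-expression libraries lay above all Col-0 libraries, with log2 fold changes of 0.79 ± 0.19 (adjusted p 0.00609) and 0.96 ± 0.19 (adjusted p 0.00783). GH3.6, known as DFL1 from a dwarf grown in light, stood at 143, 102 and 96.7 CPM in the decoy, 79.8, 101 and 95.8 CPM with PIF3 over-expression, 71.3, 74.5 and 68.9 CPM in cfh1 and 56.2, 55.3 and 64.5 CPM in Col-0. It rose by 0.96 ± 0.15 in the decoy (adjusted p 0.000343) and by 0.65 ± 0.15 with PIF3 over-expression (adjusted p 0.0133). The PIF3 call of GH3.6 was lost without Col-0 replicate 1 or 2 (adjusted p up to 0.0673). GH3.17, which prefers glutamate as the partner of auxin, stood at 51.9, 46.5 and 54.0 CPM in the decoy and 50.6, 51.1 and 54.2 CPM in Col-0 and was not called (log2 fold change -0.03). The summed level of the 7 GH3 genes was 307 ± 71.8 CPM in the decoy, 226 ± 14.4 CPM with PIF3 over-expression, 192 ± 9.47 CPM in cfh1 and 173 ± 11.3 CPM in Col-0 (SD, n = 3 each). The summed Aux/IAA level was 1711 ± 84.5, 1636 ± 227, 1620 ± 54.3 and 1560 ± 19.6 CPM in the same order.

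With PIF3 over-expression, 6 of the 34 members were higher and 0 lower than in Col-0, where 6.00% of all genes were higher and 7.32% lower. Without Col-0 replicate 1 the count was 2 and without Col-0 replicate 2 it was 3. The 6 were IAA29, IAA5, IAA19, IAA14, GH3.5 and GH3.6, whose values stand above. Their calls held without any single library for IAA29 and GH3.5. DESeq2 called 8 higher and 0 lower, adding IAA11 at 0.33 ± 0.10 and IAA13 at 0.28 ± 0.09, which had adjusted p-values of 0.0502 and 0.0502 in edgeR. At an unadjusted p under 0.05, edgeR had 10 higher and 2 lower, where 12.6% of all genes were higher and 14.5% lower. The lower pair was IAA26 at -0.38 ± 0.15 and GH3.2 at -0.62 ± 0.27 (adjusted p 0.113 and 0.157). The median log2 fold change over the members was 0.19, against -0.0012 over all genes. This comparison and that of the decoy share the Col-0 libraries, so likeness between them is in part given by the design.

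Set directly against PIF3 over-expression, the decoy had 8 members higher and 8 lower, where 20.5% of all genes were higher and 22.7% lower, so the counts were near the background. Under library totals alone, 4 members were higher and 14 were lower. Without PIF3 over-expression replicate 1 the count higher was 4, without its replicate 2 the count lower was 3, and without decoy replicate 1 or PIF3 over-expression replicate 3 it was 5. The higher ones were GH3.3 (2.22 ± 0.27), GH3.1 (1.74 ± 0.30), GH3.2 (1.17 ± 0.27), IAA34 (1.82 ± 0.52), IAA14 (0.57 ± 0.16), IAA12 (0.56 ± 0.13), IAA27 (0.38 ± 0.13) and IAA9 (0.33 ± 0.10), as log2 fold changes with SE. The lower ones were IAA31 (-2.07 ± 0.40), IAA33 (-2.06 ± 0.64), IAA6 (-1.47 ± 0.47), IAA30 (-0.88 ± 0.28), IAA1 (-0.66 ± 0.20), IAA4 (-0.59 ± 0.21), IAA28 (-0.58 ± 0.09) and IAA18 (-0.33 ± 0.12). Libraries of the 2 lines overlapped for IAA27 and IAA4, and IAA33 rested on 9 decoy and 51 PIF3 over-expression counts. Calls of single genes were checked under other settings only against Col-0. GH3.1, GH3.2 and GH3.3 thus differed between the lines by test, while GH3.5, GH3.6, IAA5, IAA19 and IAA29 did not pass it. For IAA29 the log2 fold change between the lines was -0.17 ± 0.41, and for GH3.5 -0.17 ± 0.19, which does not show that the lines are alike in them.

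Against the cfh1 mutant, the decoy had 11 members higher and 5 lower (3 without cfh1 replicate 1), where 15.0% of all genes were higher and 18.2% lower. Under library totals alone, 9 members were higher and 10 were lower. GH3.3 led with a log2 fold change of 2.50 ± 0.27 (adjusted p 2.68e-05), followed by IAA34 at 2.22 ± 0.55 and IAA29 at 1.75 ± 0.44. The lower genes were IAA31 (-1.60 ± 0.41), IAA6 (-1.41 ± 0.48), IAA4 (-0.71 ± 0.21), IAA2 (-0.68 ± 0.13) and IAA18 (-0.52 ± 0.12). PIF3 over-expression had 3 members higher than in cfh1 and 0 lower, with 5.70% of all genes higher and 7.18% lower. Without cfh1 replicate 1 the count was 1 and without cfh1 replicate 2 it was 0. The 3 were IAA29 (1.92 ± 0.44), GH3.5 (0.94 ± 0.19) and IAA28 (0.35 ± 0.09).

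Among 3 pairs of neighbouring members, 1 gene of each was called in the decoy and the other was not. IAA2 and IAA7 lie head to head on chromosome 3 with 12510 bp and no annotated protein-coding gene between them. IAA2 fell in the decoy and IAA7 was not called. IAA14 and IAA1 lie head to head on chromosome 4, 10732 bp apart, and IAA14 rose while IAA1 was not called. IAA3 and IAA17 lie head to head on chromosome 1, 6388 bp apart, and IAA17 rose while IAA3 was not called. The difference in response within these pairs was not tested. Positions are those of the TAIR10.1 annotation.

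The rest of the pathway was described from lists of receptors, ARFs, co-repressors and enzymes, to be read against the 19.6% of genes higher and 21.2% lower in the decoy. Of 13 genes for the receptors and their ubiquitin ligase, 4 were higher in the decoy and 0 lower. ECR1, a subunit of the enzyme that activates the ligase through RUB, stood at 63.3 ± 11.0 CPM in the decoy and 34.3 ± 1.79 CPM in Col-0 (log2 fold change 0.88, adjusted p 0.000116). The auxin receptor genes AFB5 and TIR1 rose by 0.58 (adjusted p 0.00903) and 0.60 (adjusted p 0.0105), and both lost the call under library totals alone (0.0917 and 0.0990). Of 15 ARF genes, the decoy had 6 higher and 2 lower, but 1 higher and 4 lower under library totals alone. Without decoy replicate 1 or Col-0 replicate 1 the count higher was 2, and without Col-0 replicate 2 it was 3. ARF3, known as ETTIN, rose by 0.90 (adjusted p 0.000621), ARF16, a repressing ARF of the root cap, by 0.43 (adjusted p 0.00609), and ARF9 stood at 40.5 ± 4.01 CPM in the decoy and 56.4 ± 3.56 CPM in Col-0 (log2 fold change -0.48, adjusted p 0.00362). The call of ARF16 was lost under library totals alone (adjusted p 0.196). Of 5 TOPLESS genes, 4 rose and 0 fell in the decoy, with TPR1 at 0.65, TPR2 at 0.57 and TPR4 at 0.45 on the log2 scale (adjusted p 0.00862, 0.0109 and 0.0265). The call of TPR4 was lost without decoy replicate 1 or 3 or Col-0 replicate 1 or 2 (adjusted p up to 0.113). Under library totals alone 1 of the 5 was called.

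Of 11 tested genes for other auxin inactivation and release, 3 were higher and 1 lower in the decoy. ILL6, an amidohydrolase best known for cleaving jasmonate conjugates, rose by 0.94 (adjusted p 0.00219), and AT1G14130 by 0.44 (adjusted p 0.0126), a call lost without decoy replicate 3 (0.0549) and under library totals alone (0.286). ILL3, of the same amidohydrolase family, stood at 6.42 ± 0.152 CPM in the decoy and 8.77 ± 0.676 CPM in Col-0 (log2 fold change -0.45, adjusted p 0.011), and without Col-0 replicate 1 its adjusted p was 0.0509. Of 5 other GH3 genes, 2 were higher in the decoy. JAR1, which joins jasmonate to isoleucine, rose by 0.36 (adjusted p 0.0297), and AT1G23160 stood at 0.324 ± 0.0435 CPM in the decoy and 0.0714 ± 0.0155 CPM in Col-0 (adjusted p 0.022). The call of JAR1 was lost under library totals alone (adjusted p 0.472), with only the decoy and Col-0 in the fit, and without decoy replicate 1 or 3 or Col-0 replicate 1 or 2, and that of AT1G23160 without decoy replicate 2 or any 1 of the Col-0 libraries.

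With PIF3 over-expression, where 6.00% of all genes were higher and 7.32% lower, the same lists had 0 called of 13 receptor and ligase genes, 1 higher of 15 ARFs, 0 of 5 TOPLESS genes, 2 higher and 2 lower of 11 inactivation and release genes, and 1 higher and 1 lower of 5 other GH3 genes. The ARF was ARF18, at 29.2 ± 3.16 CPM in PIF3 over-expression and 19.8 ± 1.66 CPM in Col-0 (log2 fold change 0.56, adjusted p 0.0125). GH3.9 stood at 2.71 ± 0.792 CPM in PIF3 over-expression and 6.69 ± 1.22 CPM in Col-0, a log2 fold change of -1.30 (adjusted p 0.00364) that held without any single library. IAMT1, which methylates auxin, stood at 1.15 ± 0.368 CPM in PIF3 over-expression and 2.96 ± 0.883 CPM in Col-0 (log2 fold change -1.36, adjusted p 0.0113). ILL6 rose by 0.75 (adjusted p 0.0213), ILR1, which frees auxin from leucine conjugates, by 0.56 (adjusted p 0.0343), and AT1G23160 by 2.76 (adjusted p 0.0132). Without Col-0 replicate 1, ARF18, IAMT1, ILL6, ILR1 and AT1G23160 each lost the call. All of these but ARF18 also lost it without Col-0 replicate 2 or without PIF3 over-expression replicate 1. The same held for ILL6 and ILR1 without Col-0 replicate 3, and for ARF18 and ILL6 without PIF3 over-expression replicate 3. In cfh1 no gene of these lists was called, and 2 were higher at an unadjusted p under 0.05, where 2.11% of all genes were.

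The promoter windows of the members were searched for 4 short elements on both strands, from 250 bases before to 50 bases after the annotated gene start. TGTCTC, the auxin response element, was in 16 of 36 windows (44.4%), against 14.2% of 27443 windows of the same length over all nuclear protein-coding genes. Its variant TGTCGG was in 6 (16.7%), against 5.12%. The G-box CACGTG, which PIF factors are known to bind and which reads the same on both strands, was in 6 (16.7%), against 7.68%. The E-box CACATG, a further PIF-binding form, was in 10 (27.8%), against 12.9%, and in IAA3 its matches on both strands overlap. In 11 members, IAA29, IAA17 and GH3.6 among them, none of the 4 elements was found, which says only that these letters are absent from the window. The 250 bases before the start follow for GH3.3, IAA14 and GH3.5, the members averaging 5 CPM or more over the 12 libraries with the largest absolute log2 fold changes against Col-0 in either the decoy (GH3.3 and IAA14) or PIF3 over-expression (GH3.5), and for IAA19 and IAA29, which were chosen after their values were seen. They were read 5′ to 3′ on the strand of the gene from TAIR10.1, and capitals mark the matches.
GH3.3 (chr2:9866563-9866812, minus strand): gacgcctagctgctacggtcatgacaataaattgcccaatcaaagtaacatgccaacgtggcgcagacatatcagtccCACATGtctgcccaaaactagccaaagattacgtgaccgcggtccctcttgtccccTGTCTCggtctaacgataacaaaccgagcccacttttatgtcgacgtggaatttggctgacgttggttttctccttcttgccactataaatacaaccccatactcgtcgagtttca
IAA14 (chr4:8350264-8350513, minus strand): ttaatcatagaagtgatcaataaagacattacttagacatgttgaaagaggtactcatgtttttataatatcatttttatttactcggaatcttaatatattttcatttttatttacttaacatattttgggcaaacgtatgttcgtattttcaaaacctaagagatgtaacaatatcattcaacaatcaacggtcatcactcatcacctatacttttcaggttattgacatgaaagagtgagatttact
GH3.5 (chr4:13653329-13653578, plus strand): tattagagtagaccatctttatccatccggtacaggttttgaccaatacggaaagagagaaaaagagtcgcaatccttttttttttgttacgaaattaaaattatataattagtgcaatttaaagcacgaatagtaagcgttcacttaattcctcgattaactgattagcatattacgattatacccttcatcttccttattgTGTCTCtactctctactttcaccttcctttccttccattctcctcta
IAA19 (chr3:5263751-5264000, plus strand): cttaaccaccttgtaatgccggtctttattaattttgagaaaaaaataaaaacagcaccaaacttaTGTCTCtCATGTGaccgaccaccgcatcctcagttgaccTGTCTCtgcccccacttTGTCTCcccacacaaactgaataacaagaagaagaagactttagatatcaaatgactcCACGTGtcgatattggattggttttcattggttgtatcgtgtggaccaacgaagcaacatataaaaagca
IAA29 (chr4:15583082-15583331, plus strand): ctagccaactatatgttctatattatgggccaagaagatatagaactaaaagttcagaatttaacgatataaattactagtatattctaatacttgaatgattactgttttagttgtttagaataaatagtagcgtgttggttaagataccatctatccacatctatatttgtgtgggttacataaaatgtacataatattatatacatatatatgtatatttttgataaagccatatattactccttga
GH3.3 has TGTCTC starting at -116 and CACATG at -172 from the gene start. GH3.5 has TGTCTC at -47, and IAA19 has it 3 times, at -184, -145 and -128, with a G-box at -70 and CACATG on the other strand at -177. The only match of IAA14 is a G-box at 30 bases after the start, outside the stretch printed. A match is a description of the sequence and does not show binding.

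**Figure D4:**
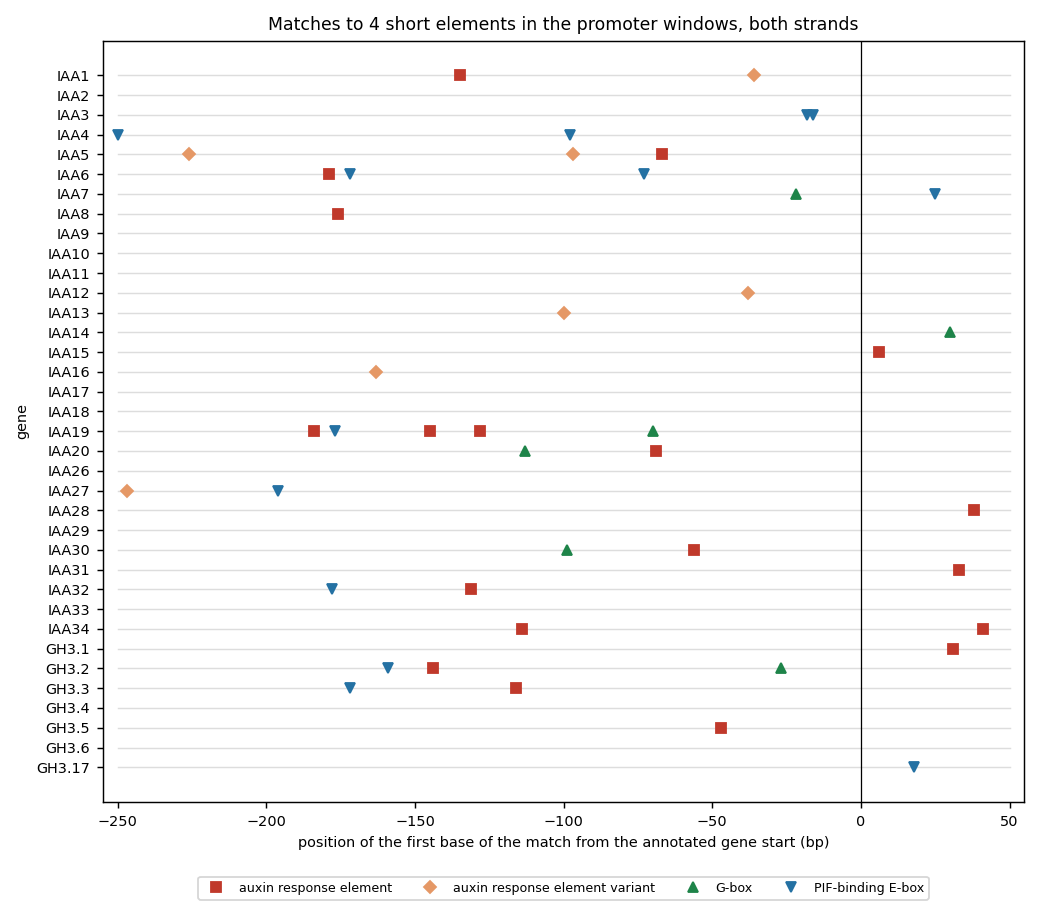
Positions (x axis, bp from the annotated gene start) of matches to the auxin response element, its variant, the G-box and the PIF-binding E-box in the windows of all 36 members (rows). IAA19 has 5 matches within its window, and the row of IAA29 is empty.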

How the data were processed

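Messenger RNA of 12 seedling libraries (3 per genotype) had been quantified before deposit. What the authors deposited is estimated counts per gene, of which 41.57% were not whole numbers (tolerance 1e-09); 2915 of the 27588 genes had 0 everywhere. Tools given in the submitters' processing notes, without roles, are StringTie 2.1.2, HISAT2 2.1.0 and Trimmomatic 0.39, with the TAIR10 build; how reads were assigned, and whether strand was used, is not stated there. Reads of antisense partners and of near-identical genes may therefore mix. Library totals ran from 21914548 to 34345371.

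Counts were rounded and fitted in R 4.3.3 with edgeR 4.0.16 (filterByExpr, minimum count 10; TMM factors; quasi-likelihood F test, 2-sided; 1 mean per genotype over all 12 libraries; common biological coefficient of variation 0.172; 8 residual degrees of freedom). Benjamini-Hochberg adjustment covered the 21235 genes tested, at a threshold of 0.05. The fit was also run on counts simulated from its own estimates with planted changes, which checks the code and not the assumptions of the model. DESeq2 1.42.0 and other settings were alternatives. Lists are described by counts and medians, with no set test.

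Positions, transcripts and sequences came from RefSeq's TAIR10.1 annotation, using the first listed transcript of each gene; the count table carries no coordinates. All 36 member names and 47 of 51 pathway names matched it, and the others are given by locus. Proteins were aligned with Biopython 1.88. Members and lists were chosen with earlier results of these data known. The rule for naming took every member, with per-library values for those past the threshold, and up to 3 genes per pathway list and comparison with the smallest adjusted p. UGT74E2 was named outside this rule, after its value was seen.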

Additional observations from a re-analysis of the deposited data

How the results depend on the processing

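Of 20 decoy calls, 13 held in every leave-one-out and every other setting that tested the gene; of 6 PIF3 over-expression calls, 2 did. Member values called in neither fit changed sign 24 times for cfh1, 13 times for the decoy and 10 times for PIF3 over-expression. Of the values of members against Col-0, 469 of 469 kept their call in cfh1. In the decoy 400 of 437 kept it (34 lost it, 3 gained it), and with PIF3 over-expression 440 of 472 (15 lost it, 17 gained it). The named pathway genes are not in these counts. The settings for the pathway lists were chosen after seeing the data. The cause of each change was not tested, except that smaller fits hold fewer libraries. Depth limits the members under 1 CPM.

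Library totals alone, which shifted all genes in the decoy to a median of -0.25, put IAA13 there at -0.0057, a lost call near 0 (adjusted p 0.966). The decoy then had 10 members lower than cfh1, and 4 higher and 14 lower than PIF3 over-expression, which had 5 higher than cfh1. Decoy lists became 1 higher and 2 lower (receptors and ligase), 1 and 4 (ARFs), 1 higher (TOPLESS), 2 lower (inactivation), and 1 and 1 (other GH3), and 4 ARFs were higher with PIF3 over-expression. Without a filter 2 inactivation genes were lower in the decoy. The stricter filter left other GH3 genes higher at 1 in the decoy line and at 0 for PIF3 over-expression. DESeq2 had 2 inactivation genes lower in the decoy and 3 ARFs higher with PIF3 over-expression. Without the decoy libraries, PIF3 over-expression had 2 members lower than Col-0 (IAA26 and GH3.2), 1 lower than cfh1, and 3 ARFs higher; decoy comparisons could not be made. With only the groups compared in the fit, the decoy had 3 ARFs, 2 TOPLESS and 0 other GH3 genes higher, and 3 members lower than cfh1 and 3 lower than PIF3 over-expression; PIF3 over-expression had 2 members lower and 3 ARFs higher than Col-0.

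Whether replicate numbers pair the libraries was not settled. Correlations of same-numbered deviations ran from -0.364 to 0.271. For the decoy and Col-0 they were 0.00934, 0.271 and 0.077, against means of -0.0189, -0.112 and -0.0469 for other numbers. Deviations from means of 3 libraries give this check little power to exclude pairing. With a replicate block, the decoy had 11 members higher and 6 lower, PIF3 over-expression 5 and 0 and cfh1 0 and 0, and 1 inactivation gene was lower with PIF3 over-expression.

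Leaving out each library in turn, members higher ranged from 2 to 5 with PIF3 over-expression against Col-0, from 0 to 3 with it against cfh1, and from 4 to 9 in the decoy against it. Members higher in the decoy against Col-0 ranged from 10 to 13. Members lower in the decoy ranged from 3 to 6 against Col-0, from 3 to 6 against cfh1 and from 3 to 8 against PIF3 over-expression. In the decoy, ARFs higher ranged from 2 to 5, TOPLESS genes higher from 2 to 5, inactivation genes higher from 1 to 3 and lower from 0 to 2, other GH3 genes higher from 0 to 1 and lower from 0 to 1, and receptor and ligase genes lower from 0 to 1. With PIF3 over-expression, ARFs higher ranged from 0 to 1, inactivation genes higher from 0 to 2 and lower from 0 to 2, and other GH3 genes higher from 0 to 1.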
